A study of Mus musculus with 2 samples.

Results

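The replicative histone genes are the multicopy genes that supply the histones packaging newly copied DNA. They were taken as every gene whose symbol in the deposited table begins with Hist1h, Hist2h, Hist3h or Hist4h, which gave 57 genes read by 74 probes, out of 26878 named genes. The 57 genes comprised 6 of H1, 18 of H2A, 14 of H2B, 9 of H3 and 10 of H4. Current symbols are used here, with the older ones where a gene is first described in detail. Of the 57 genes, 51 were measured, which means that at least 1 probe was well above background on both arrays.

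The study had 2 single-colour Agilent arrays. One carried RNA of mouse glioblastoma stem cells with a lentiviral short hairpin RNA against Stat5b (knockdown), and the other carried RNA of the same line with a non-target hairpin (control). Both came from 1 line grown as neurospheres out of a brain tumour induced with the SB transposon, both were stably transduced, and Stat5b encodes a transcription factor of the JAK-STAT pathway. With 1 array per group there was no replicate, no test was run, and each difference describes these 2 arrays. Differences are log2 values, knockdown minus control, and the ± is the scanner software's own error, which does not cover differences between cultures.

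Histone H1 is the linker histone that binds DNA between nucleosomes. H2A pairs with H2B, and H3 pairs with H4, to form the protein core around which DNA is wrapped. Replicative histone genes are transcribed mainly in S phase, through the coactivator NPAT, which cyclin E and CDK2 phosphorylate. Their mRNAs normally end in a short stem-loop bound by the protein SLBP and carry no poly(A) tail, although several of the genes can also give longer, polyadenylated transcripts. The labelling kit named in the labels primes from poly(A) tails, so for these genes the array reads only the RNA that this priming reached.

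The probes that carry the results differ in where they lie on the transcript, and a selection is printed 5′ to 3′ as deposited. The first set shows 30-base stretches of 8 probes around the stem-loop, with the bases of the stem-loop in capitals. Such stretches show where each probe sits against the normal end of the mRNA. The stem-loop pattern of 16 bases was found whole in 7 probes on the array, and all 7 belonged to the replicative histone genes.
H3c11: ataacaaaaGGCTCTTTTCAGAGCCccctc
H2bc7: taacccaaaGGCTCTTTTCAGAGCCaccta
H2bc18: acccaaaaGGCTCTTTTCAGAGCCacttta
H3c8: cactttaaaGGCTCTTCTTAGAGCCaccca
H3c1: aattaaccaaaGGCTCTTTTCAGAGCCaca
H4c17: caactaaaGGCCCTTTTCAGGGCCatccaa
H2ac18: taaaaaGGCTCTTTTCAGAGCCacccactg
H2ac8: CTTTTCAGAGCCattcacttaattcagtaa
In the H2ac18 and H2ac8 probes the stem-loop stands at the start, so that most of the probe lies past it. In the other 6 probes it stands near the end, so that most of the probe lies before it.

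The second set shows coding sequence shared by H2A probes. The whole 60-base probes of 3 genes follow, with the run identical to the H2ac12 probe in capitals in the other 2. They are shown because such long identical runs can let a probe bind RNA of another gene.
H2ac12: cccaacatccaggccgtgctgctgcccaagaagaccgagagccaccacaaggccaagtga
H2ac20: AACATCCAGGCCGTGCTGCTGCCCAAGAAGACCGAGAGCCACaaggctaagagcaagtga
H2ac10: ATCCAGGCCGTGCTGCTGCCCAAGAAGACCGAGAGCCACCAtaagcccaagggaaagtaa
The identical run was 42 bases for H2ac20 and 41 bases for H2ac10.

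The arrays and the cells were checked first. The brighter Stat5b probe had a signal of 498 in knockdown cells, against 1991 in control cells, a log2 difference of -2.0 ± 0.20. A dimmer probe had 7.49 in knockdown cells, where it was below the detection flag, and 14.7 in control cells. The 2 arrays were close in brightness, with a 75th percentile signal of 493.7 in knockdown cells and 493.3 in control cells. Of 8 neural and glioma stem cell markers, 6 were well above background in knockdown cells and 5 in control cells, and Sox2 and Fabp7 were below it in both. Olig2 had 53.2 in knockdown cells and was below that flag at 6.28 in control cells. Of 6 microglia and immune cell markers, 4 were well above background on each array, and Aif1 and C1qa were below it on both. The brightest Ptprc probe had 4831 in knockdown cells and 3288 in control cells, and that of Itgam had 4632 in knockdown cells and 4250.2 in control cells. The brightest Csf1r probe had 807 in knockdown cells and 556 in control cells, and that of Cd68 had 2280.4 in knockdown cells and 3282 in control cells. The immune markers summed to 12561 in knockdown cells and 11388 in control cells, and the stem cell markers to 114605 in knockdown cells and 122509 in control cells, taking the brightest probe of each gene. Of 4 neuronal markers, 3 were well above background on each array (summed signal 6140.0 in knockdown cells and 5136 in control cells), and of 5 endothelial and mural markers, 4 were (227 in knockdown cells and 181 in control cells). Among the last of these, Pdgfrb had 76.1 in knockdown cells and 16.6 in control cells, and Cdh5 had 50.4 in knockdown cells and 84.7 in control cells. The part these levels have in the histone values was not tested.

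Replicative histone transcripts were lower in knockdown cells in all 5 classes by their medians. Of the 51 measured genes, 44 lay below 0 (86.3%), against 48.8% of the 16354 genes measured on both arrays. At or under -0.5, a step chosen after the values were seen, lay 26 of the 51 genes, against 11.0% of all measured genes. Only H3c11 was at least 2-fold lower, where 2.41% of all measured genes were, and 0 of the 51 were at least 2-fold higher, where 3.67% of all were. The median over the 51 genes was -0.50, or 70.6% of the control signal, against 0.01 over all measured genes. The differences were thus moderate in size and mostly of one direction.

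**Figure D1:**
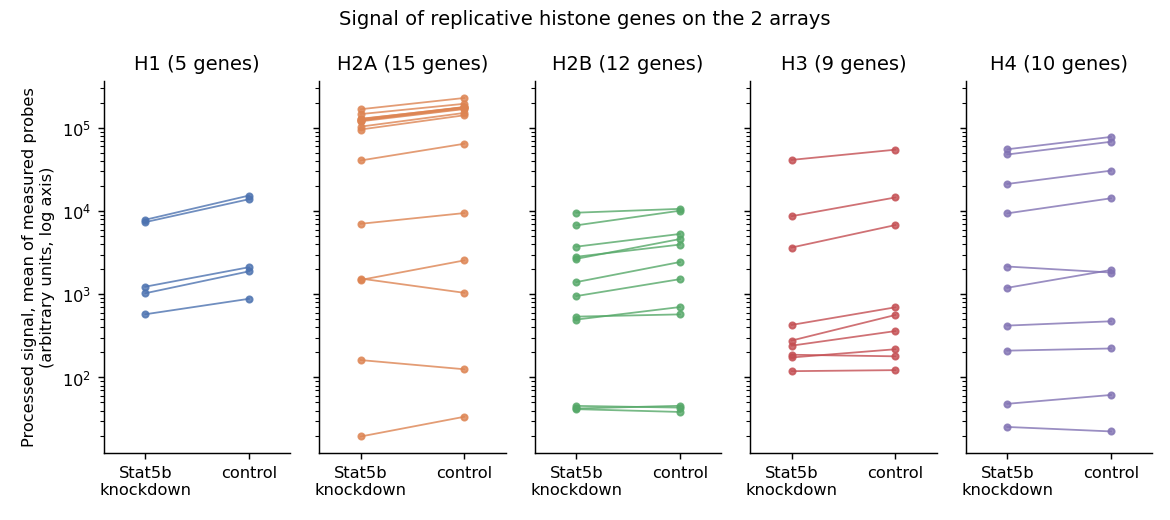
Processed signal of each measured replicative histone gene in knockdown cells (left) and control cells (right), on a log axis, with 1 line per gene and 1 panel per class. Most lines lie lower on the knockdown side in every class. Levels of different genes come from different probes and are not comparable.

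H1 was the class with the lowest median, -0.88 over 5 measured genes, and all 5 lay between -0.97 and -0.62. H1f5 (Hist1h1b), a linker histone made in dividing cells, had a signal of 7880.0 in knockdown cells, against 15403 in control cells (-0.97 ± 0.20). H1f4 (Hist1h1e), a linker histone found in most somatic cells, had 7379.8 in knockdown cells and 13919.9 in control cells (-0.92 ± 0.20). H1f2 (Hist1h1c), also a common somatic linker histone, was read by 2 probes, which gave -1.11 and -0.64 with a mean of -0.88 ± 0.14. H1f3 (Hist1h1d) had 1234 in knockdown cells and 2117 in control cells (-0.78 ± 0.20). H1f1 (Hist1h1a) had 575 in knockdown cells and 883 in control cells (-0.62 ± 0.20). The 5 somatic H1 genes therefore stood on the same side of 0 with a spread of 0.14 (SD over genes). H1f6, the testis linker histone, had 13.5 in knockdown cells and 14.4 in control cells, and was well above background in control cells only. Its bound of 1.07-fold lower is only the probe's own difference, -0.10 ± 0.44, which was smaller than the software's error. No decrease can be read from it.

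H2A genes had a median of -0.48 over 15 measured genes, of which 13 lay below 0 and 6 at or under -0.5. H2ac12 (Hist1h2ah), one of the brightest probes of the class, had 168398 in knockdown cells and 229942 in control cells (-0.45 ± 0.20). H2ac11 (Hist1h2ag) had 147168 in knockdown cells and 195786 in control cells (-0.41 ± 0.20). Both encode replication-dependent H2A, and both probes belong to a set of 10 H2A probes, 1 each for 10 genes, linked to one another by identical runs of at least 20 bases. The 10 probes ranged from -0.78 to -0.41, and their signals may include RNA of one another. The testis-type H2ac1 (Hist1h2aa) is among these 10 genes, with 128032 in knockdown cells and 179048 in control cells, a signal that the shared bases do not allow to be assigned to that gene.

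The H2A genes with the lowest values were H2ac21, H2ac13 and H2ac4. H2ac21 (Hist2h2ab) was dim, with 19.5 in knockdown cells and 33.7 in control cells (-0.79 ± 0.31), and with the normexp background correction its difference was -0.23. H2ac13 (Hist1h2ai) had 1489 in knockdown cells and 2559 in control cells (-0.78 ± 0.20). H2ac4 (Hist1h2ab) had 40734 in knockdown cells and 64743 in control cells (-0.67 ± 0.20). The H2ac13 and H2ac4 probes end inside the stem-loop.

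A pair of H2A genes was higher in knockdown cells. H2ac18 (Hist2h2aa1) had 1546 in knockdown cells and 1042 in control cells (0.57 ± 0.20), the highest difference among all 51 measured genes. H2ac8 (Hist1h2ae) had 162 in knockdown cells and 125 in control cells (0.37 ± 0.21). These are the 2 measured genes whose probe starts at the stem-loop and runs past it, as printed above. A probe of H2ac20 also runs past the stem-loop and was dim on both arrays, while the coding probe of the same gene was at -0.54. The H2ac18 probe lies among the bottom 64 rows of the array, as do the only measured probes of H1f5, H2ac4, H2ac19 and H3c13. Of all measured probes, 7.57% in those rows and 5.43% in the others differed at least 2-fold between the arrays.

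H2B genes had a median of -0.50 over 12 measured genes, with 10 below 0 and 6 at or under -0.5. H2bc7 (Hist1h2bf) was lowest, with 1402 in knockdown cells and 2444 in control cells (-0.80 ± 0.20). H2bc18 (Hist2h2bb) had 2669 in knockdown cells and 4621 in control cells (-0.79 ± 0.20). H2bc3 (Hist1h2bb) had 2 probes, at -0.77 and -0.58, with a mean of -0.68 ± 0.15. H2bc14 (Hist1h2bm) had 6752 in knockdown cells and 10132 in control cells (-0.59 ± 0.20). All of these encode replication-dependent H2B and all lay outside the middle 50% of all measured genes, which ran from -0.24 to 0.28.

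At the other end of the H2B class values lay near 0. H2bc4 (Hist1h2bc) had 9588 in knockdown cells and 10657 in control cells (-0.15 ± 0.20). H2bu2 (Hist3h2ba) had 2 probes, at -0.09 and -0.09. H2bc8 (Hist1h2bg) had 45.5 in knockdown cells and 43.4 in control cells (0.07 ± 0.25), and H2bc23 (Hist1h2bq) had 41.6 in knockdown cells and 38.5 in control cells (0.11 ± 0.24). These values were smaller than the software's error. H2bc22 had 8.81 in knockdown cells and 22.3 in control cells and was well above background in control cells only, which gave a bound of at least 1.72-fold lower. The testis-type H2bc1 had 3740 in knockdown cells and 5321 in control cells (-0.51 ± 0.20). Identical runs were sought between histone probes only, and not against whole transcripts of other genes, so this signal may include their RNA. The same limit holds for the other coding probes.

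H3 genes had a median of -0.58 over 9 genes, all of them measured, with 8 below 0. H3c11 (Hist1h3i) had 278 in knockdown cells and 564 in control cells (-1.02 ± 0.20), which lies past 2-fold by less than that error. Its probe belongs to a set of 6 probes linked to one another by identical runs of at least 20 bases. The set includes the brighter H2bc7 and H2bc18 probes, so the H3c11 signal may include RNA of other genes. H3c13 (Hist2h3b) had 3656 in knockdown cells and 6807 in control cells (-0.90 ± 0.20). H3c3 (Hist1h3c) had 8708 in knockdown cells and 14621 in control cells (-0.75 ± 0.20). H3c4 (Hist1h3d) had 41391 in knockdown cells and 54903 in control cells (-0.41 ± 0.20), and H3c1 (Hist1h3a) had 174 in knockdown cells and 218 in control cells (-0.33 ± 0.21). The genes encode the replication-dependent H3 proteins, and the 6 of the Hist1 cluster all lay below 0, from -1.02 to -0.33. In the Hist2 cluster H3c14 (Hist2h3c1) was at -0.04 ± 0.21 and H3c15 (Hist2h3c2) at 0.06 ± 0.15, beside H3c13 at -0.90. H3c14 and H3c15 were read only by probes annotated to Ensembl or GenBank transcripts, and all other H3 genes only by RefSeq probes. The part of the kind of probe in this contrast was not tested.

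H4 genes had the smallest median, -0.42 over 10 genes, all measured, with 8 below 0. H4c3 (Hist1h4c) was lowest, with 1197 in knockdown cells and 1961 in control cells (-0.71 ± 0.20). H4f16 (Hist4h4), the only gene of its cluster, had 9414 in knockdown cells and 14281 in control cells (-0.60 ± 0.20). H4c12 (Hist1h4k) was at -0.53 ± 0.14 over 2 probes, and H4c14 (Hist2h4) had 48048 in knockdown cells and 68348 in control cells (-0.51 ± 0.20). H4c4 (Hist1h4d) had 1 probe that was spotted 10 times, and 9 of those spots carried no outlier flag. These 9 spots ranged from 96177 to 103528 in knockdown cells and from 137617 to 141629 in control cells, without overlap, at a mean difference of -0.48 with an SD of 0.034 over spots. The SD is that of spots on the same slide and not of cultures.

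H4c9 (Hist1h4i) was the H4 gene with the highest value, and both of its probes lay above 0, at 0.20 and 0.28 (mean 0.24 ± 0.14). Its coding probe is printed with that of H4c3, since the 2 probes overlap in the coding sequence by 18 bases (in capitals) with 1 mismatch.
H4c9: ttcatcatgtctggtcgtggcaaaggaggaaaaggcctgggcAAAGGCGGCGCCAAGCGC
H4c3: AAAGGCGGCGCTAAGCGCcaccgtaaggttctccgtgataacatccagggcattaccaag
The H4c9 probe was at 0.20 ± 0.20, no larger than the software's error, and the H4c3 probe at -0.71 ± 0.20. H4c1 (Hist1h4a) was dim, with 25.4 in knockdown cells and 22.4 in control cells (0.18 ± 0.30). H4c17 (Hist1h4m) had 210.0 in knockdown cells and 223 in control cells (-0.09 ± 0.21). H4c11 (Hist1h4j) was the only gene with measured probes of opposite sign, at -0.47 and 0.12. The probe at -0.47 is linked by shared sequence to brighter probes of H4c12 and H4c4, so its signal may include their RNA.

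The probes were next sorted by the transcript they are annotated to, a split made after the values were seen and given without a test. Of 44 measured probes annotated to RefSeq transcripts of genes spanning at most 1000 bases, 43 lay below 0, with a median of -0.56 and quartiles of -0.75 and -0.48. The exception was the coding probe of H4c9. The other 18 measured probes, annotated to RefSeq transcripts of longer genes or to Ensembl or GenBank transcripts, had a median of 0.02, with 9 below 0 and 9 above. For genes outside the replicative histones, 49.4% of 22000 measured RefSeq probes and 54.2% of 5488 other probes lay below 0. Among the 18 histone probes, the second H1f2 probe at -0.64 and the H2bc21 probes at -0.52 and -0.48 were low.

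**Figure D2:**
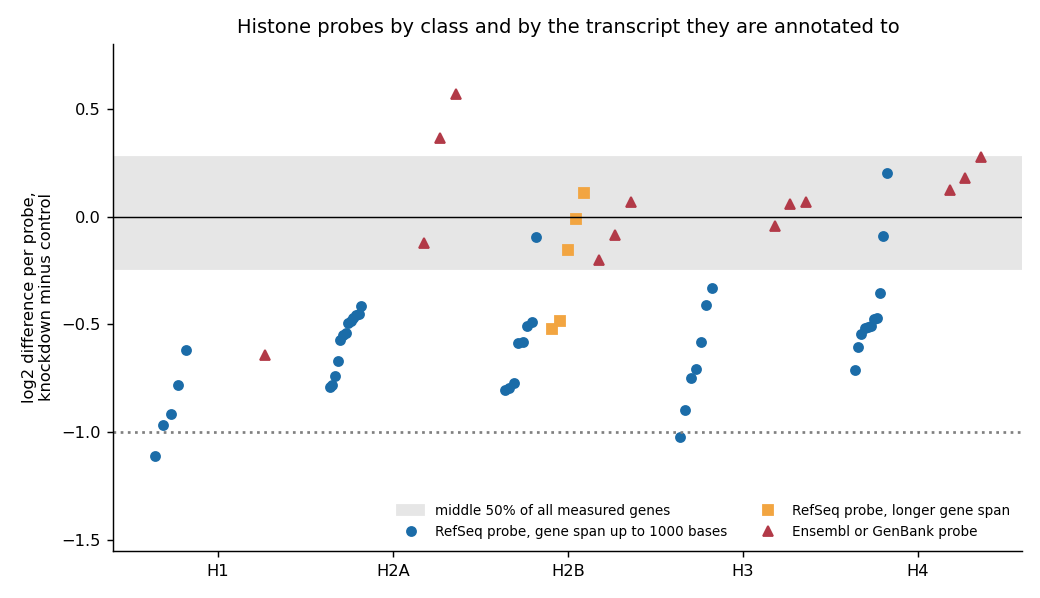
Log2 difference (knockdown minus control) of each measured histone probe, by class along the horizontal axis, with symbols for the kind of annotated transcript. The grey band holds the middle 50% of all measured genes and the dotted line marks 2-fold lower. Probes of short RefSeq genes (circles) lie below 0 in each class but for 1 in H4, and the other kinds gather nearer 0.

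The split ran along brightness in part. Control signals of the short-gene probes had a median of 10434 and ranged from 33.7 to 229942, and those of the other 18 probes had a median of 190.2 and ranged from 22.4 to 10657. Within control signals of 20 to 1000, the short-gene probes had a median of -0.58 (11 probes) and the others one of 0.06 (13 probes). Within 1000 to 20000 the medians were -0.75 (17 probes) and -0.12 (5 probes). The gap between the kinds was thus present in both ranges of brightness. The part of the annotation, of the RNA's end or of the priming in this gap was not tested.

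Genes with 2 measured probes gave the same comparison within a gene. H2aw (Hist3h2a) was at -0.74 with its short-gene RefSeq probe and at -0.12 with its other probe. H4c11 was at -0.47 and 0.12 in the same order, and H1f2 at -1.11 and -0.64. These gaps, other minus RefSeq probe, were 0.62, 0.59 and 0.47. Over 3066 other genes with both kinds of probe, the same gap had a median of -0.04 and an SD of 0.48. It was at or over 0.5 in 324 of those genes and at or under -0.5 in 393, so gaps of this size also occur outside the histones. H2bu2 and H4c9 showed no such gap, with -0.09 and -0.09 for H2bu2 and 0.20 and 0.28 for H4c9. Pairs of short-gene RefSeq probes stood at -0.77 and -0.58 for H2bc3, at -0.55 and -0.52 for H4c12 and at -0.51 and -0.48 for H4c4. Probes of H4c12 and H4c4 share sequence with each other, so these pairs are not independent. The short-gene RefSeq probe of H4c11 forms a set of 3 with 1 probe of each, linked by identical runs of at least 20 bases. In control cells it had 3885, and the linked probes had 11781 for H4c12 and 43813 for H4c4. The H4c11 signal at -0.47 may therefore include RNA of those genes.

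**Figure D3:**
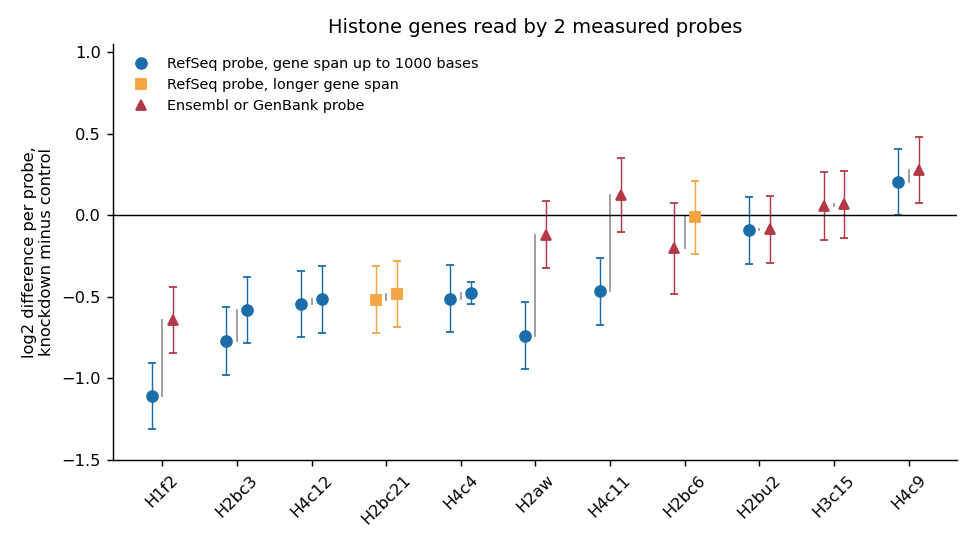
Log2 difference (knockdown minus control) of each probe for the 11 histone genes with 2 measured probes, ordered by their mean. Symbols give the kind of annotated transcript and bars the scanner software's error. H1f2, H2aw and H4c11 show the widest gaps, with the short-gene RefSeq probe the lower one in each.

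The position of the stem-loop gave a related picture. In 10 measured probes the stem-loop, whole or begun, stood at the end of the probe, and all 10 lay below 0, from -1.11 to -0.09, with a median of -0.73. H3c11 and the lower H1f2 probe, the 2 probes past 2-fold, were among them. The 2 measured probes with the stem-loop at their start were the H2ac18 and H2ac8 probes, at 0.57 and 0.37. The 50 measured probes without the element had a median of -0.49, and they included both short-gene RefSeq probes and probes of the other kinds. All 10 probes ending at the stem-loop were short-gene RefSeq probes, and the H2ac18 and H2ac8 probes were annotated to Ensembl transcripts. Position of the stem-loop and kind of probe therefore cannot be told apart between these 10 and 2 probes. The probes of H3c11, H2bc7, H2bc18, H2bu2, H3c1 and H2ac18 form a set of 6 linked to one another by identical runs of at least 20 bases. These 6 probes are therefore not independent, and their signals may include RNA of one another. With 2 probes of 2 genes, the comparison before and past the stem-loop remains a description.

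The clusters were compared by position. The Hist1 cluster on chromosome 13 had a median of -0.49 over 38 measured genes, and the Hist2 cluster on chromosome 3 one of -0.52 over 10. The Hist3 cluster on chromosome 11 had 2 measured genes, H2aw at -0.43 and H2bu2 at -0.09. Along the Hist1 cluster low and high values stood side by side. H1f5 and H3c11 are neighbours at -0.97 and -1.02, while H2bc7 at -0.80 stands next to H2bc8 at 0.07, which stands next to H2ac8 at 0.37. H2bc7 was read by a short-gene RefSeq probe, and H2bc8 and H2ac8 by probes of the other kind.

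**Figure D4:**
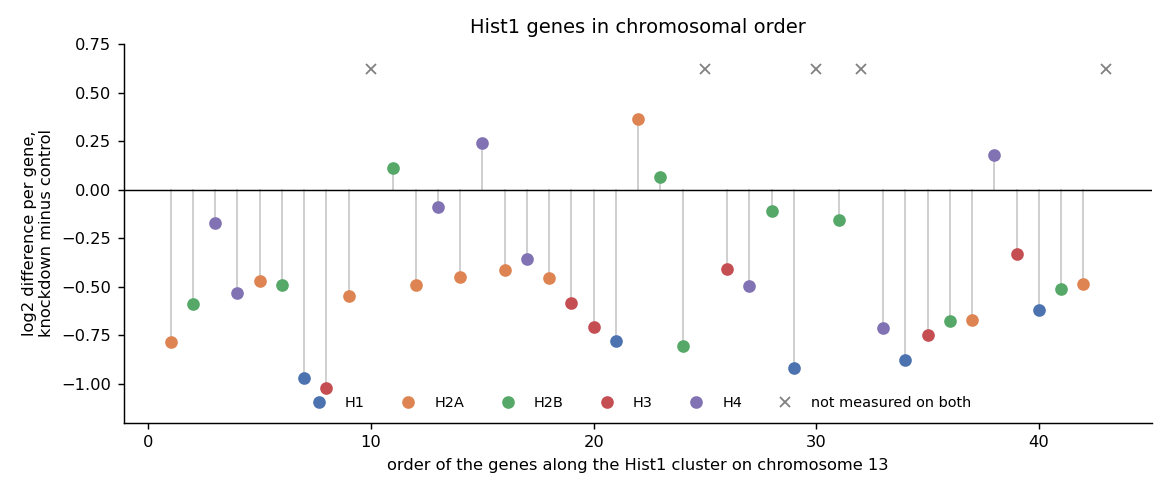
Log2 difference (knockdown minus control) of each gene of the Hist1 cluster in its order along chromosome 13, coloured by class. Crosses mark 5 genes that were not measured on both arrays. Values below 0 occur along the whole cluster, and the 5 genes above 0 are scattered among them.

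Promoters were matched in RefSeq (build GRCm38.p6) for 50 of the 57 genes, and the 250 bases before each start were searched on both strands for 5 short motifs, none of which contains another. CCAAT was found in 42 of 50 promoters (84%), against 34.5% of all 27025 promoters, and TATAA in 31 (62%), against 23.5%. AAACACA, a motif known from H1 promoters, was found in 5 of 6 H1 promoters, against 6.22% of all. The H1 gene without it was H1f1. The octamer ATTTGCAT, known from H2B promoters, was found in 5 of 11 H2B and 7 of 17 H2A promoters, against 1.61% of all. Some of these genes lie head to head, so that their windows can hold the same bases. GGTCCG, known from H4 promoters, was found in 7 of 9 H4 promoters, against 6.82% of all.

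The last 120 bases before the start are printed for H1f5, the lowest H1 gene, and for H4c3 and H4c9, the lowest and highest H4 genes, with the motifs in capitals. H1f5 lies at chr13:21780626-21780745, H4c3 at chr13:23698459-23698578 and H4c9 at chr13:22041363-22041482 in GRCm38.p6, all on the minus strand.
H1f5: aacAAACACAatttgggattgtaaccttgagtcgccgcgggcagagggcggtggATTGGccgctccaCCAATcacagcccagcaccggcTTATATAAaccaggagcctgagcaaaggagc
H4c3: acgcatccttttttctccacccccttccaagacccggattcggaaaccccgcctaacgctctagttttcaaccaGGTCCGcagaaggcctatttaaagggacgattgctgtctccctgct
H4c9: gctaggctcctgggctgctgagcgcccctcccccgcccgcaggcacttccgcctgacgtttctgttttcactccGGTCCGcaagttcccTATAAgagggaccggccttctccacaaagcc
GGTCCG was present in both H4c3 and H4c9. A match of these letters is not evidence of binding.

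Genes that make or process histone mRNA were lower by their median as well. Of 25 measured genes of histone transcription and mRNA 3′ processing, 21 lay below 0 (84%, against 48.8% of all measured genes), with a median of -0.16. Past 2-fold were Ccne1, cyclin E1, with 4398 in knockdown cells and 14827 in control cells (-1.75 ± 0.20), and Eri1, an exonuclease that trims the stem-loop, with 473 in knockdown cells and 997 in control cells (-1.08 ± 0.20). Ccne2, cyclin E2, had 2.95 in knockdown cells and 74.9 in control cells and was well above background in control cells only, which gave a bound of at least 5.77-fold lower. Lsm10, a subunit of the U7 particle that cuts histone pre-mRNA, was at 0.33 and E2f1, an S phase transcription factor, at 0.40. Npat was at -0.63 ± 0.20, Cdk2 at -0.04 ± 0.20 and Slbp at -0.47 with probes from -0.81 to -0.34. Slbp is counted among the S phase genes too. Npat, Cdk2 and Slbp are named for their roles, after their values were seen.

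Of 22 measured histone chaperone and chromatin assembly genes, 19 lay below 0 (86.4%, against 48.8% of all measured genes), with a median of -0.30. Nap1l1, an H2A and H2B chaperone, had 2422 in knockdown cells and 5479 in control cells (-1.18), and was the only one past 2-fold. Asf1b, an H3 and H4 chaperone of dividing cells, had 11969 in knockdown cells and 20347 in control cells (-0.77 ± 0.20). Cabin1, of the H3.3 chaperone complex HIRA, was at 0.20 ± 0.21, with probes at -0.16 and 0.57. Atrx, which deposits H3.3 with Daxx, was at 0.36. The other 18 measured genes of this list lay between those of Asf1b and Cabin1.

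Of 34 measured S phase genes, 25 lay below 0 (73.5%, against 48.8% of all measured genes), with a median of -0.30 and none past 2-fold. Cdc45, a helicase subunit, was at -0.86 and Rrm2, a ribonucleotide reductase subunit, at -0.81. The clamp loader subunits Rfc5 and Rfc2 were at 0.16 and 0.42, with the 3 Rfc5 probes from -0.03 to 0.43. Mki67, a marker of proliferating cells, had 8813 in knockdown cells and 14589 in control cells (-0.73). The 3 proliferation markers summed to 18228 in knockdown cells and 30969 in control cells. In these bulk samples fewer cells in S phase and less histone RNA per cell cannot be told apart.

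Of 11 measured replication-independent histone variants, 10 lay below 0 (90.9%, against 48.8% of all measured genes), with a median of -0.29 and none past 2-fold. The mRNAs of these variants mostly carry poly(A) tails. Cenpa, the centromeric H3, had 2765 in knockdown cells and 4518 in control cells (-0.71 ± 0.20). H1f0, the linker histone of resting cells, had 224 in knockdown cells and 361 in control cells (-0.69 ± 0.20). H3f3a, which encodes H3.3, was at -0.02 and H2az2, an H2A.Z gene, at 0.04. H2aj was at -0.41, and its probe shares a run of 38 bases with the H2ac19 probe, so its signal may include replicative H2A RNA. The median of each of the 5 replicative classes lay below that of each of these 4 lists, with no test of that order. The order did not hold under 3 alternatives. With no filter on dim probes H4 was at -0.292, the chaperones at -0.315 and the S phase genes at -0.296. With 1 member per group of probes with shared sequence, the first by symbol, H4 was at -0.264. The chaperones were then at -0.298, the S phase genes at -0.296 and the variants at -0.289. With the files' symbols the variants were at -0.487, against -0.425 for H4 and -0.485 for H2A.

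**Figure D5:**
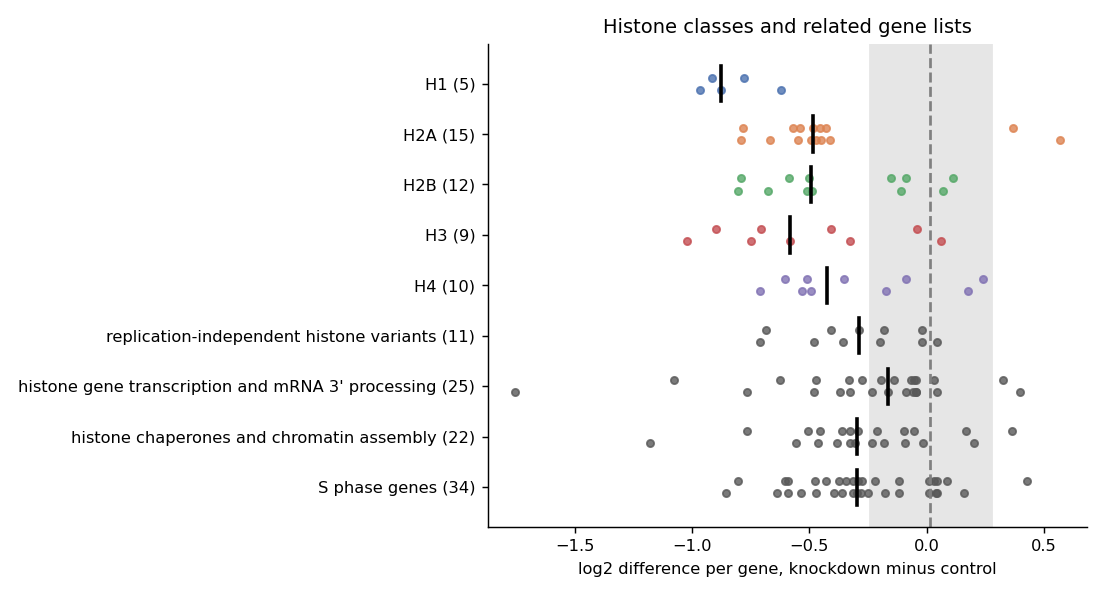
Log2 difference (knockdown minus control) of each measured gene in the 5 histone classes and 4 related lists, with the number of measured genes in brackets. Black bars are medians, the dashed line is the median of all measured genes and the grey band holds their middle 50%. H1 has the lowest median, at -0.88, and histone transcription and processing genes have the one nearest 0, at -0.16.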

How the data were processed

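Per the labels' protocols, total RNA was amplified, labelled with Cy3 and hybridised to 1 array per group. The deposited scanner files hold a background-corrected intensity per spot, made by Agilent Feature Extraction 12.1.0.3 with protocol GE1_1200_Jun14 for build mm9, per the file headers. The authors' deposited table holds log2 values of the same arrays, which for 56294 probes with a single spot (100% within 0.001) were log2 intensity less a constant for the array (column medians -3.81 for knockdown and -3.82 for control).

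Here, spots with outlier flags were left out (94 knockdown and 112 control spots, with 0 saturated). Signals under 1 were set to 1, log2 values were averaged over spots of a probe, and each array's 75th percentile was subtracted. A gene's value is the mean over probes well above background on both arrays (33150 probes were so in knockdown cells and 33701 in control cells). A gene seen on 1 array only has a bound against the higher of the probe's own level and the lowest level well above background. Probes were named by RefSeq accession, then by symbol. The number of arrays limits the precision, and no test was possible, so 2-fold is a rule of size. Summaries were tested on simulated data with Python 3.11.15. Simulated probes of a gene differed only by small random noise, and binding of other genes' RNA was not simulated. The simulation therefore checks the computation only.

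Named genes were, per class, the 3 lowest, the 3 highest and the 2 brightest in control cells, and those past 2-fold or with probes of opposite sign. From the other lists they were those past 2-fold and the 2 lowest and 2 highest. Members and lists were chosen with earlier results of these data known. The planned normexp correction could not use mean spot signals, which the files lack, so limma 3.58.1 used median spot signals.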

Additional observations from a re-analysis of the deposited data

How the results depend on the processing

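No paired analysis was possible because each group had 1 array, and for the same reason no array could be left out. All values were recomputed under 9 of the 10 listed alternatives (normexp on mean spot signals was not run) and 4 chosen after seeing the data, and every class median stayed below 0 in each, from -0.92 to -0.75 for H1, -0.54 to -0.44 for H2A, -0.59 to -0.45 for H2B, -0.71 to -0.49 for H3 and -0.50 to -0.26 for H4. Array median scaling and the authors' table moved no histone gene by more than 0.056, the SD between replicate spots. Both only subtract another constant per array, so all genes shift alike and neither is an independent check. Normexp on median spot signals gave -0.82 for H1, -0.49 for H3 and -0.36 for H4, and 0 genes at least 2-fold lower. It moved 17 of the 51 genes by more than 0.056, and H2bc23 changed from above to below 0. With no filter on dim probes H1 was -0.75, H4 -0.29, the replication-independent variants -0.20, and 3 genes were at least 2-fold lower. The median of all genes was then 0.10. With bright probes only H3 was -0.64 and H4 -0.50, against -0.48 for H2A, so H4 was then not the class nearest 0. With the brightest probe of each gene the chaperones were -0.21, the variants -0.18, and 2 genes were at least 2-fold lower. RefSeq accessions alone gave -0.71 for H3, -0.49 for H4, -0.22 for the chaperones and 2 genes at least 2-fold lower. Without the bottom 64 rows H3 was -0.50 and the variants -0.18. Quantile normalization put the variants at -0.22, and file symbols, which named 4 of their 11 genes, at -0.49. Short-gene RefSeq probes alone gave -0.59 for H2B, -0.71 for H3, -0.49 for H4, -0.57 over all members and 2 genes at least 2-fold lower. Keeping 1 member per group of probes with shared sequence, the first by symbol, gave -0.26 for H4 and 0 genes at least 2-fold lower. That rule kept H2ac18 (0.57) and H4c11 (-0.17) and left out H3c11 (-1.02), H4c12 (-0.53) and H4c4 (-0.49). Both changes therefore depend on which member was kept. Where no cause is given by how an alternative is built, the cause was not tested.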
